A study of Mus musculus with 12 samples.

Results

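The type I interferon response genes described here are 33 mouse genes listed by name: both subunits of the interferon alpha/beta receptor, signalling and feedback genes, sensors of foreign nucleic acid, and antiviral effectors that interferon induces. Of these, 31 were measured, out of 18193 genes in all. Isg15 is named only on a probe set that it shares with another gene, and no probe set names Ifi44, so both were left out. Membership goes by gene name and function, with no measured value in the rule, though the list was chosen with earlier results of these data known.

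The genes were followed in CD8 T cells on 12 Affymetrix arrays, 1 per sample. The labels give every mouse the strain C57bl/c and an age of 6 to 8 weeks, and no allele or agent other than the tumour. Mice carrying B16F10-GP melanoma, a mouse skin tumour line grown in the flank, gave tumour-infiltrating lymphocytes (TIL) sorted between days 17 and 19. The Tim-3+ sort was PD-1+ Tim-3+ 2B4+ (4 arrays, called exhausted in the labels). The Tim-3- sort was PD-1+ Tim-3- 2B4- (3 arrays, called stem-like), and naive CD8 cells came from the spleens of other, naive mice (5 arrays). Naive cells therefore differ from TIL in tissue, tumour exposure and activation together. The labels do not say whether arrays came from separate animals or pools, so p-values measure only the spread between these samples.

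Type I interferons, the alpha and beta interferons, bind a receptor made of Ifnar1 and Ifnar2. Receptor-bound kinases then phosphorylate transcription factors, among them Stat2, which joins Irf9 in a complex that binds the interferon-stimulated response element, a DNA motif built from GAAA repeats, in front of antiviral genes. In CD8 T cells the pathway is known to shape expansion and survival after antigen is met.

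The 4 promoters below are printed because their genes were lower in Tim-3+ TIL than in Tim-3- TIL and hold that motif. They are RefSeq sequences of build GRCm38.p6, the 250 bases before the annotated start of the gene, 5′ to 3′ along its strand. Capitals mark each match to the motif, spelled GAAA, then any 2 bases, then GAAA, or to its reverse complement, TTTC, then any 2 bases, then TTTC.
Ifit3, chr19:34583279-34583528, plus strand: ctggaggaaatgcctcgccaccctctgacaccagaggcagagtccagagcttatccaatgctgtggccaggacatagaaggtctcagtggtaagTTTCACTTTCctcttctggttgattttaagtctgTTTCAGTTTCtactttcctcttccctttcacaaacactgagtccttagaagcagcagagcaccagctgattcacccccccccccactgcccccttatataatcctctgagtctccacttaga
Oas3, chr5:120777660-120777909, minus strand: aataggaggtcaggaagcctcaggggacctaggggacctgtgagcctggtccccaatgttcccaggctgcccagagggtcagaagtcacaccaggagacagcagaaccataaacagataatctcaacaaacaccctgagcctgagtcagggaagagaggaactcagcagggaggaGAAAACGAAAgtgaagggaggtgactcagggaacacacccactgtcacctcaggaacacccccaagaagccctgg
Rsad2, chr12:26456453-26456702, minus strand: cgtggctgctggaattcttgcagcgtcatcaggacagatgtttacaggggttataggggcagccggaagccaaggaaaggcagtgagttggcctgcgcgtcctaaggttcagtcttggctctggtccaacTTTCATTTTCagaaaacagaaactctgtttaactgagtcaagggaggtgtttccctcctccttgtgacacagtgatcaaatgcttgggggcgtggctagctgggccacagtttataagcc
Ifit1, chr19:34640639-34640888, plus strand: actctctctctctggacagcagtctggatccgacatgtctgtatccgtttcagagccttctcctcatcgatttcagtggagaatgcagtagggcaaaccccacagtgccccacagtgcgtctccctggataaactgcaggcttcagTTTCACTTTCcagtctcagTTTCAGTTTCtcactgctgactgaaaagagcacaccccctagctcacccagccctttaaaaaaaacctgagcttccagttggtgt
The matches of Ifit3 begin 156 and 122 bases before the start, and those of Ifit1 begin 104 and 85 bases before it. Oas3 has 1 match that begins 75 bases before the start and Rsad2 has 1 that begins 120 bases before it. A match is a run of letters and was not tested as a binding site.

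Values are log2 of the deposited intensities, and 1 probe set, the brightest, stands for each gene. Over all genes, any pair of arrays from 1 group had a correlation between 0.988 and 0.996. Havcr2, the gene of Tim-3, read 11.57 to 11.87 on Tim-3+ arrays, 6.55 to 7.50 on Tim-3- arrays and 4.31 to 4.91 on naive arrays, and Cd8a and Cd3e were high in all groups. Cd244a, the gene of 2B4, read 11.02 to 12.05 on Tim-3+ arrays, 4.35 to 5.77 on Tim-3- arrays and 3.90 to 4.62 on naive arrays. The arrays were also divided into set A (Tim-3+ 1 and 2, Tim-3- 1, naive 1 and 2) and set B (the others). No label names these sets, which were drawn from these same values. The set of an array is its sign on the main axis of deviations from group means. Such deviations cancel out within a group, so every group had to split whatever the data. Set values are given beside calls that did not pass within a set. Within set A the Tim-3- group is 1 array, and the spread comes from the Tim-3+ and naive arrays, so that the lone array is assumed to vary as they do. Brightness below log2 5.71, percentile 40 of all genes, may be background, and a change against such a mean is at best a lower bound. A level here is a property of a probe set, so levels of different genes are not compared. In sorted bulk samples, a smaller share of cells that use a gene cannot be told apart from less RNA per cell.

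Between the TIL groups, 10 of the 31 genes were lower in Tim-3+ cells than in Tim-3- cells and 1 was higher, at a limma adjusted p below 0.05. That is 32.3% lower, beside 5.77% of all genes (7.77% of all genes were higher), and 35.5% called in either direction, beside 13.5% of all genes. The genes that fell were both receptor subunits (Ifnar1 and Ifnar2), the RNA sensor Ifih1, and the effectors and induced genes Ifit1, Ifit3, Oas3, Oasl2, Rsad2, Mx2 and Rtp4. Ifit2 was the gene that rose. The median log2 change was -0.23 over the 31 genes, beside 0.01 over all genes, and 26 of the 31 had a lower mean in Tim-3+ cells. The fold sizes of the 11 called genes ran between 1.41 and 4.26.

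In Tim-3- TIL against naive cells, 12 of the 31 genes were lower and 6 were higher. This is 38.7% lower, beside 18.3% of all genes (16.1% of all genes were higher), and 58.1% called in either direction, beside 34.4% of all genes. The genes that were higher were Isg20, Mx1, Oas1a, Rsad2, Ifih1 and Ifnar1. In Tim-3+ TIL against naive cells, 20 were lower (64.5%, beside 21.4% of all genes) and 3 were higher (Isg20, Mx1 and Ifnar1, beside 20.1% of all genes), or 74.2% in either direction, beside 41.5% of all genes. The median log2 change was -0.55 in Tim-3+ cells, beside -0.07 over all genes, and -0.20 in Tim-3- cells, beside -0.06 over all genes. In Tim-3+ against naive cells 11 of the 31 genes were called and changed at least 2-fold, beside 14.3% of all genes, and 17 lower and 1 higher had arrays that did not overlap, beside 37.3% in either direction. In Tim-3- against naive cells 6 changed at least 2-fold, beside 12.0%, and 12 lower and 5 higher did not overlap, beside 35.1%. The 3 comparisons share arrays, so their values are set side by side and not correlated.

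**Figure D1:**
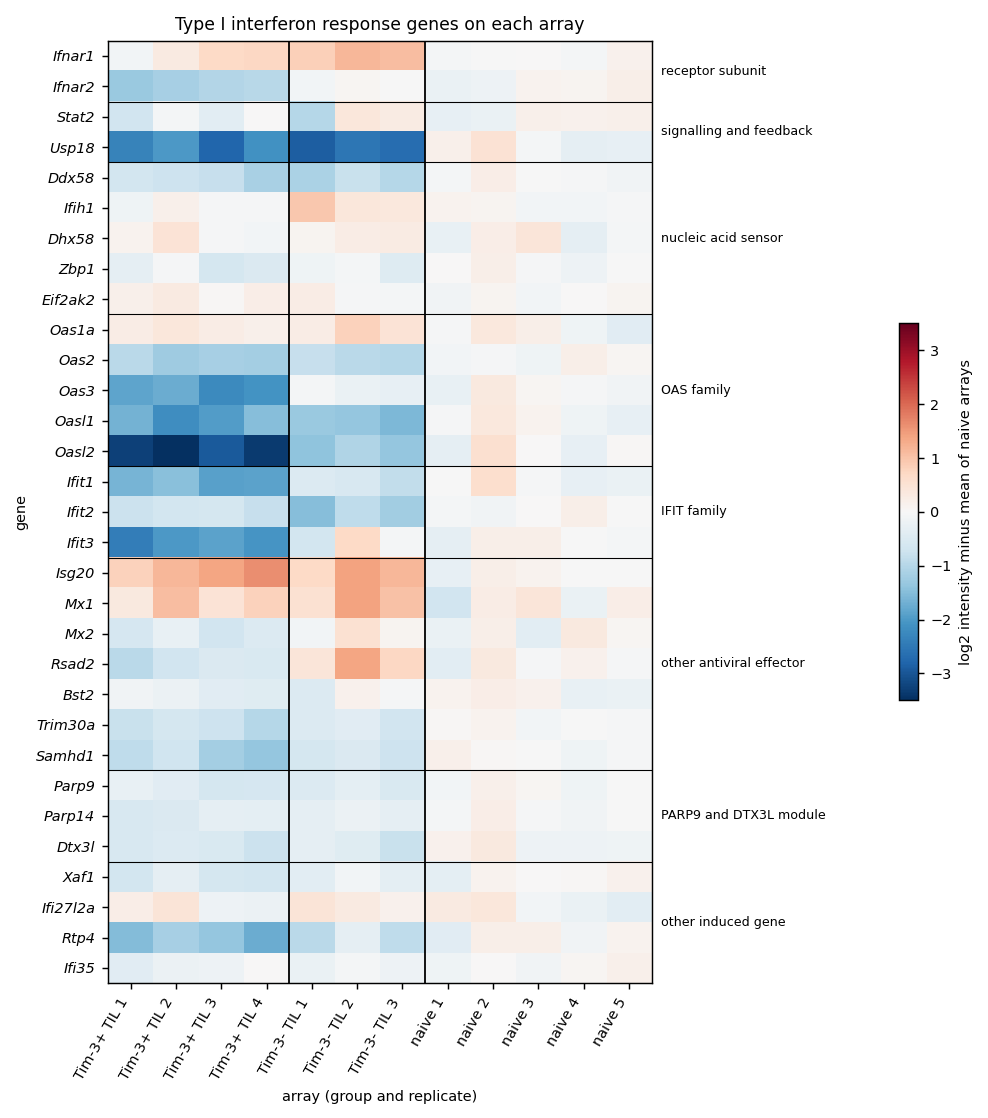
Each cell is the log2 intensity of a gene on 1 array minus the mean of the 5 naive arrays, on a colour scale from blue (lower) to red (higher), with genes grouped by role and arrays by group. Oasl2, Usp18, Ifit3 and Oas3 hold the darkest blue on Tim-3+ arrays, and on Tim-3- arrays Usp18 does while Ifit3 and Oas3 stay near the naive level.

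The median gene lay below the naive mean on every TIL array. The median difference was -0.63, -0.48, -0.62 and -0.60 on the Tim-3+ arrays and -0.32, -0.08 and -0.28 on the Tim-3- arrays, while naive arrays ran between -0.10 and 0.21. By group means, 18 of the 31 genes were in the order naive, Tim-3-, Tim-3+ from high to low. Many of those steps are not past the threshold: Ifit1, Oasl2 and Rtp4 passed it at each step. The order Tim-3-, Tim-3+, naive held for 5 genes, naive, Tim-3+, Tim-3- for 3, Tim-3-, naive, Tim-3+ for 3, and Tim-3+, Tim-3-, naive for 2.

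**Figure D2:**
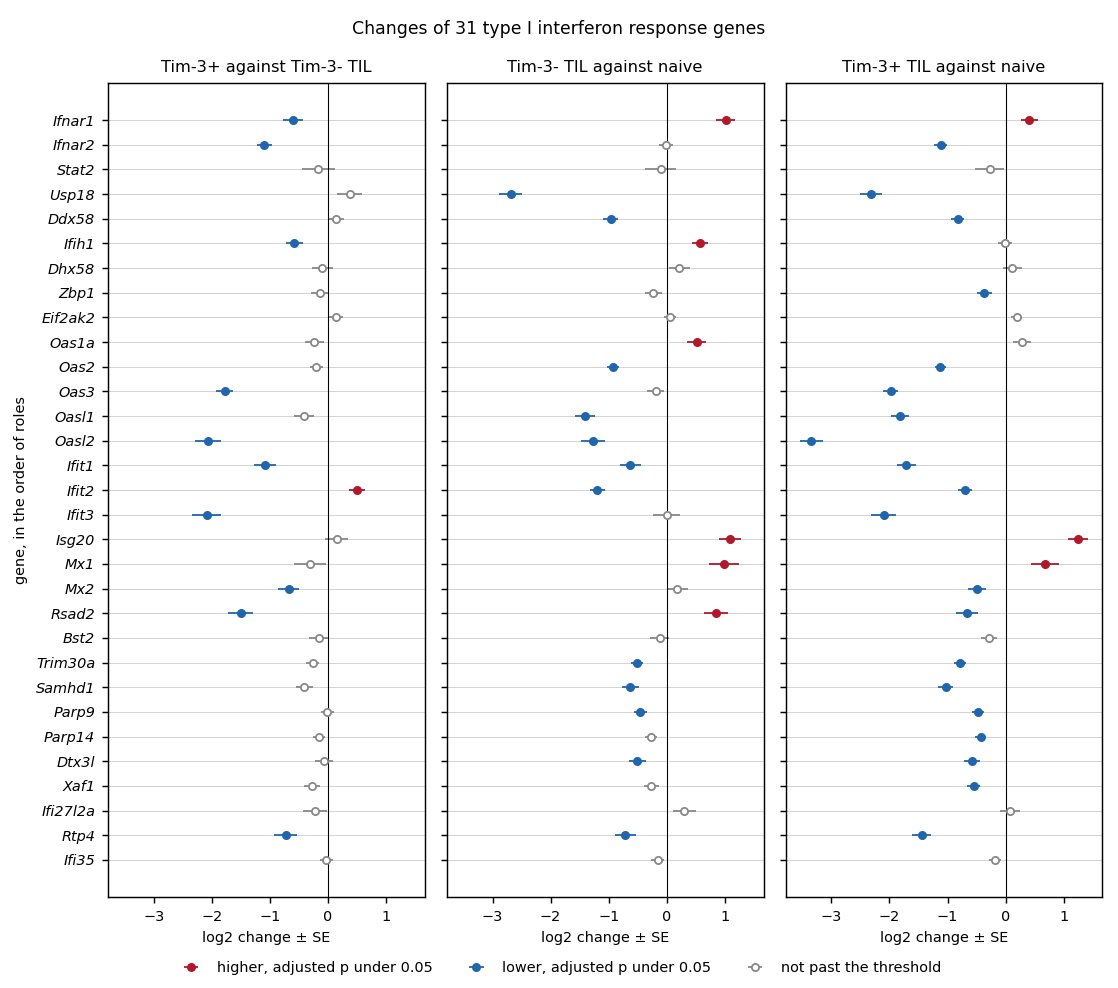
Points are log2 changes ± SE of the 31 genes in the 3 comparisons, in the order of their roles. Filled points passed the adjusted p of 0.05 (red higher, blue lower) and open points did not, with 10 blue and 1 red between the TIL groups, 12 and 6 in Tim-3- TIL against naive, and 20 and 3 in Tim-3+ TIL against naive.

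The receptor subunits were both lower in Tim-3+ cells than in Tim-3- cells, and differed in how they stood against naive cells. Ifnar2, the chain that binds interferon most tightly, read 9.87, 10.01, 10.15 and 10.19 on Tim-3+ arrays, against 11.08, 11.23 and 11.15 on Tim-3- arrays and 10.94, 10.98, 11.30, 11.27 and 11.38 on naive arrays. Every Tim-3+ array was below every other array, while Tim-3- and naive arrays overlapped. The log2 change was -1.10 ± 0.13 in Tim-3+ against Tim-3- cells (adjusted p = 5.37e-05), -1.12 ± 0.11 in Tim-3+ against naive cells (adjusted p = 1.81e-06) and -0.02 ± 0.12 in Tim-3- against naive cells (adjusted p = 0.934). Both other probe sets of Ifnar2 also read lower in Tim-3+ cells than in Tim-3- cells, by log2 changes of -1.95 and -2.48. In Tim-3- against naive cells those probe sets gave -0.79 and -0.64. With the mean of its probe sets, Ifnar2 was called lower there (-0.48, adjusted p = 0.038), so the Tim-3- level against naive cells depends on the probe set.

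Ifnar1, the other receptor chain, read 9.02, 9.42, 9.81 and 9.82 on Tim-3+ arrays, against 9.94, 10.26 and 10.18 on Tim-3- arrays and 9.03, 9.09, 9.13, 9.03 and 9.26 on naive arrays. All Tim-3- arrays were above all the others, and Tim-3+ arrays overlapped naive ones. The change was 1.02 ± 0.16 in Tim-3- against naive cells (adjusted p = 0.000227) and -0.61 ± 0.17 in Tim-3+ against Tim-3- cells (adjusted p = 0.0302). In Tim-3+ against naive cells it was 0.41 ± 0.15 (adjusted p = 0.0431), but the gene's other probe set gave -0.34 there, so its direction against naive cells depends on the probe set. That call was also lost in 8 of the 12 fits that left out 1 array (adjusted p 0.0534 to 0.145): without naive array 1, 2, 3 or 4, Tim-3+ array 2, 3 or 4 or Tim-3- array 3. Within set A it was 0.16 (adjusted p = 0.494). Between the TIL groups, both probe sets were lower in Tim-3+ cells, and the call was lost without Tim-3+ array 1 or 2 or without Tim-3- array 2 or 3 (adjusted p 0.0588 to 0.126). It was -0.72 within set A (adjusted p = 0.0867) and -0.40 within set B (adjusted p = 0.0638).

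Among signalling and feedback genes, Usp18 fell far below its naive level in both TIL groups. Usp18, which strips Isg15 from proteins and blocks the receptor at Ifnar2, read 5.68, 6.02, 5.25 and 5.90 on Tim-3+ arrays, against 5.16, 5.51 and 5.36 on Tim-3- arrays and 8.21, 8.53, 7.96, 7.71 and 7.73 on naive arrays. The TIL groups overlapped and all 7 TIL arrays were below all naive arrays. It was lower, with a log2 change of -2.32 ± 0.18 in Tim-3+ against naive cells (adjusted p = 1.54e-07) and -2.69 ± 0.20 in Tim-3- against naive cells (adjusted p = 1.55e-07), where the Tim-3- mean was in the range that may be background. The Tim-3+ mean lay at the upper edge of that range, with Tim-3+ arrays 1 and 3 inside it, so that change may also be a lower bound. Stat2, the transcription factor of the pathway, passed in no comparison, with changes between -0.28 and -0.11.

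**Figure D3:**
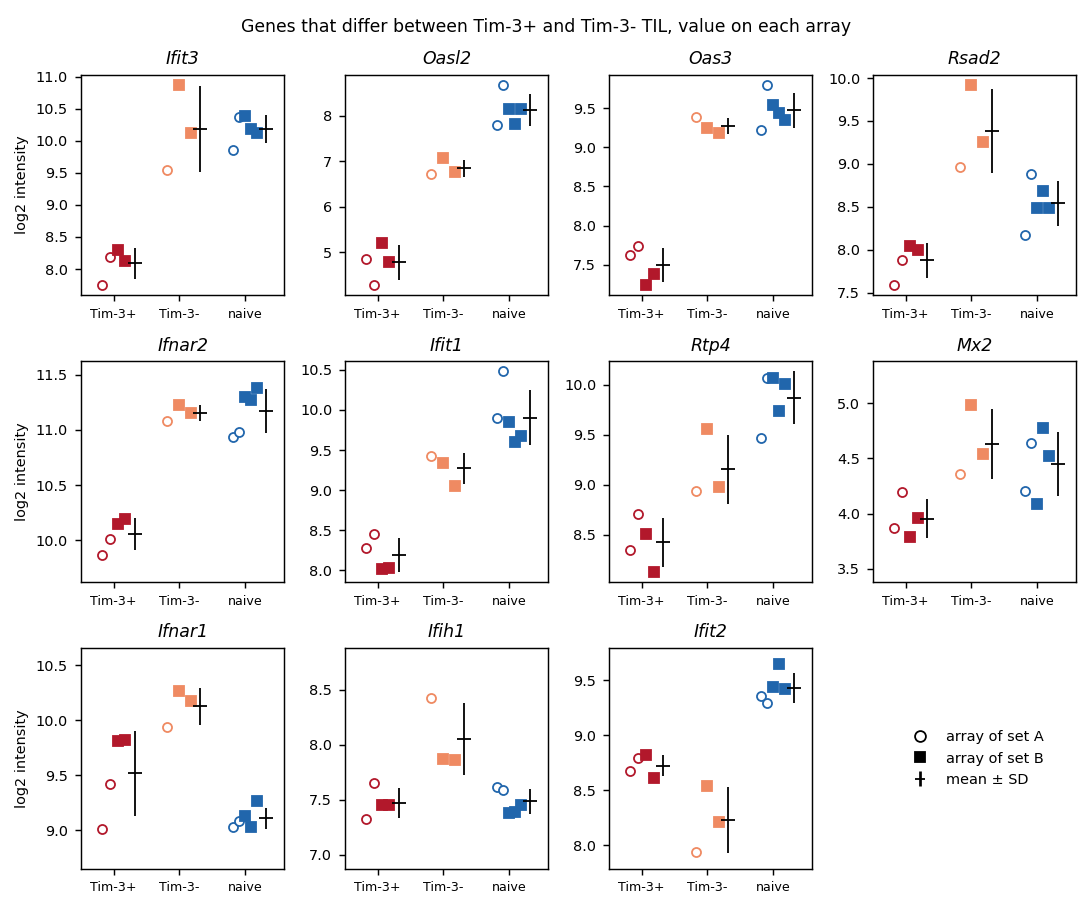
Each panel is 1 of the 11 genes called between the TIL groups, with the log2 intensity of every array (circles set A, squares set B) and the mean ± SD for Tim-3+, Tim-3- and naive cells. Axes start above 0 and differ by gene. Tim-3+ and Tim-3- arrays do not overlap in any panel, and Ifit2 alone is higher in Tim-3+ cells.

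Of 5 nucleic acid sensors, 1 fell between the TIL groups. Ifih1, the sensor of long double-stranded RNA known as MDA5, read 7.32, 7.66, 7.46 and 7.45 on Tim-3+ arrays, against 8.42, 7.87 and 7.86 on Tim-3- arrays and 7.62, 7.59, 7.38, 7.39 and 7.46 on naive arrays. The 3 Tim-3- arrays were above all others, and Tim-3+ and naive arrays overlapped. Its change was -0.58 ± 0.14 in Tim-3+ against Tim-3- cells (adjusted p = 0.0133), 0.57 ± 0.14 in Tim-3- against naive cells (adjusted p = 0.0046) and -0.01 ± 0.12 in Tim-3+ against naive cells (adjusted p = 0.939).

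Ddx58, the RNA sensor RIG-I, was lower than in naive cells in both TIL groups, at a log2 change of -0.83 ± 0.12 in Tim-3+ cells (adjusted p = 5.33e-05) and -0.96 ± 0.13 in Tim-3- cells (adjusted p = 4.34e-05). Its change between the TIL groups was 0.13 ± 0.14 (adjusted p = 0.636). Zbp1, a sensor of Z-form nucleic acid, was lower in Tim-3+ than in naive cells, at a log2 change of -0.37 ± 0.13 (adjusted p = 0.0324), a call that did not stand without naive array 1, 2 or 5 or Tim-3+ array 3 or 4 (adjusted p 0.0531 to 0.113) and in set A alone (-0.29, adjusted p = 0.184). The other probe set of Zbp1 gave -0.96 there and -0.56 in Tim-3- against naive cells. The Tim-3- change, not called with the probe set used, passed with the most variable one (adjusted p = 0.00727). It also passed with the mean of probe sets (-0.40, adjusted p = 0.0295). Dhx58 (LGP2) and Eif2ak2, the RNA-activated kinase PKR, passed in no comparison with the probe set used. In Tim-3+ against naive cells the other probe sets of Eif2ak2 gave 0.50 and 0.42. With the mean of its probe sets, Eif2ak2 was called higher there (0.37, adjusted p = 0.00482).

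The OAS family makes oligoadenylates that switch on RNase L, an RNA-cutting enzyme, and its OAS-like members Oasl1 and Oasl2 carry ubiquitin-like domains. Oas3 and Oasl2 fell in Tim-3+ against Tim-3- cells, Oas2 and Oasl1 were lower than naive in both TIL groups, and Oas1a went the other way against naive cells. Oas3 read 7.62, 7.73, 7.24 and 7.39 on Tim-3+ arrays, against 9.39, 9.25 and 9.19 on Tim-3- arrays and 9.22, 9.80, 9.54, 9.44 and 9.34 on naive arrays. Tim-3- and naive arrays overlapped, and every Tim-3+ array was below all of them. The change was -1.78 ± 0.15, or 3.43-fold, in Tim-3+ against Tim-3- cells (adjusted p = 2.24e-06), -1.98 ± 0.13 in Tim-3+ against naive cells (adjusted p = 2.04e-08) and -0.20 ± 0.14 in Tim-3- against naive cells (adjusted p = 0.33). Its promoter holds the match printed above.

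Oasl2 read 4.85, 4.28, 5.19 and 4.78 on Tim-3+ arrays, against 6.72, 7.06 and 6.76 on Tim-3- arrays and 7.80, 8.68, 8.14, 7.83 and 8.15 on naive arrays. The 3 groups lay apart with no overlap, Tim-3+ lowest and naive highest. It changed by -2.07 ± 0.22 in Tim-3+ against Tim-3- cells (adjusted p = 2.54e-05), -3.35 ± 0.20 in Tim-3+ against naive cells (adjusted p = 5.53e-09) and -1.27 ± 0.21 in Tim-3- against naive cells (adjusted p = 0.000308). The Tim-3+ mean was in the range that may be background, so the changes in Tim-3+ cells are at best lower bounds. The motif was not found in the window of Oasl2.

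Oas2 read 6.33, 6.03, 6.10 and 6.09 on Tim-3+ arrays, against 6.45, 6.31 and 6.26 on Tim-3- arrays and 7.18, 7.23, 7.12, 7.46 and 7.34 on naive arrays. All naive arrays were above all TIL arrays, and the TIL groups overlapped. It was lower than naive, at a log2 change of -1.13 ± 0.10 in Tim-3+ cells (adjusted p = 3.94e-07) and -0.93 ± 0.11 in Tim-3- cells (adjusted p = 1.09e-05). Oasl1, known in mice to restrain translation of the interferon regulator Irf7, read 4.65, 4.11, 4.35 and 4.79 on Tim-3+ arrays, against 4.99, 4.94 and 4.73 on Tim-3- arrays and 6.24, 6.67, 6.40, 6.15 and 5.99 on naive arrays. Both TIL groups were below every naive array and in the range that may be background. Its changes were -1.82 ± 0.16 in Tim-3+ against naive cells (adjusted p = 3.35e-07) and -1.41 ± 0.17 in Tim-3- against naive cells (adjusted p = 1.65e-05).

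Oas1a was higher in Tim-3- than in naive cells by 0.51 ± 0.16 (adjusted p = 0.0248), with arrays that overlapped. That call rested on set B, with 0.75 in set B and 0.10 in set A, and was lost without Tim-3- array 2 or 3 or naive array 4 or 5 (adjusted p 0.0517 to 0.146). In Tim-3+ against naive cells its change was 0.28 ± 0.15 (adjusted p = 0.158).

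The IFIT genes, which encode RNA-binding proteins that block translation of viral RNA, split between the TIL groups: Ifit1 and Ifit3 fell and Ifit2 rose in Tim-3+ cells. The 3 genes lie close together on chromosome 19. All 3 were lower in Tim-3+ than in naive cells. Ifit3 read 7.75, 8.18, 8.30 and 8.12 on Tim-3+ arrays, against 9.55, 10.87 and 10.12 on Tim-3- arrays and 9.86, 10.38, 10.38, 10.18 and 10.11 on naive arrays. Tim-3+ arrays were all lowest, and Tim-3- arrays spread across and beyond the naive range. The change was -2.09 ± 0.24, or 4.26-fold, in Tim-3+ against Tim-3- cells (adjusted p = 5.37e-05), -2.10 ± 0.22 in Tim-3+ against naive cells (adjusted p = 2.09e-06) and 0.00 ± 0.23 in Tim-3- against naive cells (adjusted p = 0.994). Within set A the change between the TIL groups was -1.58 and within set B it was -2.29. Mice carry a near-identical copy, Ifit3b, and signal from it on this probe set was not tested.

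Ifit1 read 8.28, 8.45, 8.01 and 8.02 on Tim-3+ arrays, against 9.43, 9.34 and 9.05 on Tim-3- arrays and 9.90, 10.48, 9.85, 9.60 and 9.68 on naive arrays. The 3 groups did not overlap. It changed by -1.08 ± 0.19 in Tim-3+ against Tim-3- cells (adjusted p = 0.00158), by -1.71 ± 0.17 in Tim-3+ against naive cells (adjusted p = 1.25e-06) and by -0.63 ± 0.18 in Tim-3- against naive cells (adjusted p = 0.0147), the last lost without Tim-3- array 3 (adjusted p = 0.0824). Within set A the change between the TIL groups was -1.06 (adjusted p = 0.0632) and that of Tim-3- against naive cells -0.76 (adjusted p = 0.0853).

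Ifit2 read 8.67, 8.79, 8.82 and 8.61 on Tim-3+ arrays, against 7.94, 8.54 and 8.22 on Tim-3- arrays and 9.35, 9.29, 9.44, 9.65 and 9.42 on naive arrays. Naive arrays were all highest, and the lowest Tim-3+ array was just above the highest Tim-3- array. It was lower than naive, at a log2 change of -0.71 ± 0.12 in Tim-3+ cells (adjusted p = 0.000244) and -1.20 ± 0.13 in Tim-3- cells (adjusted p = 6.03e-06). The rise of 0.49 ± 0.14 in Tim-3+ against Tim-3- cells (adjusted p = 0.0268) was lost without Tim-3+ array 2 or 3 or Tim-3- array 1 or 3 (adjusted p 0.064 to 0.11), and within set B it was 0.34 (adjusted p = 0.207). The motif letters were not found in either Ifit2 window.

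Of 7 other antiviral effectors, Rsad2 and Mx2 fell between the TIL groups. Rsad2, the enzyme viperin, which makes a nucleotide that stops viral RNA synthesis, read 7.59, 7.88, 8.04 and 8.00 on Tim-3+ arrays, against 8.97, 9.92 and 9.26 on Tim-3- arrays and 8.17, 8.88, 8.49, 8.68 and 8.49 on naive arrays. Tim-3- arrays were all highest and Tim-3+ arrays all lowest, with naive arrays between. Its change was -1.51 ± 0.21 in Tim-3+ against Tim-3- cells (adjusted p = 0.000255) and 0.84 ± 0.20 in Tim-3- against naive cells (adjusted p = 0.00465). It was -0.66 ± 0.19 in Tim-3+ against naive cells (adjusted p = 0.00988), where the gene's other probe sets gave 0.20 and -0.14. Between the TIL groups those probe sets gave -0.73 and -1.16, the same direction. Within set A the change was -1.23 between the TIL groups (adjusted p = 0.0684), 0.45 in Tim-3- against naive cells (adjusted p = 0.35) and -0.79 in Tim-3+ against naive cells (adjusted p = 0.0592).

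Mx2, a dynamin-like GTPase, read 3.87, 4.19, 3.79 and 3.96 on Tim-3+ arrays, against 4.36, 4.98 and 4.54 on Tim-3- arrays and 4.21, 4.64, 4.09, 4.78 and 4.52 on naive arrays. All group means were in the range that may be background, so its change of -0.68 ± 0.18 between the TIL groups (adjusted p = 0.0248) and of -0.49 ± 0.16 in Tim-3+ against naive cells (adjusted p = 0.024) are at best lower bounds. The call between the TIL groups was lost without Tim-3+ array 1 or 3 or Tim-3- array 2 or 3 (adjusted p 0.0516 to 0.14), and within set A it was -0.33 (adjusted p = 0.467). The call against naive cells was lost without naive array 2 or 4 or Tim-3+ array 1 or 3 (adjusted p 0.0569 to 0.073), within set A (-0.39, adjusted p = 0.178) and within set B (-0.59, adjusted p = 0.0577).

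Isg20, an exonuclease that degrades RNA, had the largest rise of the 31 genes against naive cells in both TIL groups. It read 9.59, 9.96, 10.17 and 10.40 on Tim-3+ arrays, against 9.49, 10.21 and 9.94 on Tim-3- arrays and 8.50, 8.996, 8.90, 8.78 and 8.76 on naive arrays. Every TIL array was above every naive array, and the TIL groups overlapped. It was higher than naive by 1.24 ± 0.17 in Tim-3+ cells (adjusted p = 4.31e-05) and by 1.09 ± 0.19 in Tim-3- cells (adjusted p = 0.000411), the last 0.74 within set A (adjusted p = 0.0944). Mx1, an antiviral GTPase that is defective in most inbred laboratory mice, was higher than naive by 0.68 ± 0.24 in Tim-3+ cells (adjusted p = 0.0335) and 0.99 ± 0.26 in Tim-3- cells (adjusted p = 0.00814). The Tim-3+ call was lost without naive array 1 or 4 or Tim-3+ array 2 or 4 (adjusted p 0.0738 to 0.109), within set A (0.91, adjusted p = 0.112) and within set B (0.51, adjusted p = 0.097). The Tim-3- call was lost without Tim-3- array 2 (adjusted p = 0.0547) and in set A alone (0.74, adjusted p = 0.293).

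Samhd1, which breaks down the building blocks of DNA, read 10.93, 11.11, 10.62 and 10.44 on Tim-3+ arrays, against 11.19, 11.29 and 11.07 on Tim-3- arrays and 11.97, 11.85, 11.80, 11.67 and 11.76 on naive arrays. All TIL arrays were below all naive arrays, and the TIL groups overlapped by a single pair of arrays. Its changes were -1.03 ± 0.13 in Tim-3+ against naive cells (adjusted p = 1.41e-05) and -0.63 ± 0.14 in Tim-3- against naive cells (adjusted p = 0.00289). Between the TIL groups it was -0.41 ± 0.15 (adjusted p = 0.0898), and all its probe sets read lower in Tim-3+ cells. That change passed in 3 of the 11 other fits that left out no single array (adjusted p 0.0135 to 0.0171). It passed in 1 of the 12 that left out 1, the one without Tim-3+ array 2 (adjusted p = 0.027). Trim30a, a ubiquitin ligase family member, was lower than naive, at a log2 change of -0.78 ± 0.10 in Tim-3+ cells (adjusted p = 1.57e-05) and -0.52 ± 0.11 in Tim-3- cells (adjusted p = 0.00171). Bst2 (tetherin, which holds budding virus on the cell) passed in no comparison.

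The PARP9 and DTX3L module, an ADP-ribosylating enzyme family and its partner ligase, had all 3 measured genes lower in Tim-3+ than in naive cells and none called between the TIL groups, where none had an unadjusted p below 0.05 either. In Tim-3+ against naive cells Parp9 changed by -0.47 ± 0.10 (adjusted p = 0.00193), Parp14 by -0.43 ± 0.10 (adjusted p = 0.00225) and Dtx3l by -0.58 ± 0.13 (adjusted p = 0.00276). In Tim-3- against naive cells Parp9 changed by -0.46 ± 0.11 (adjusted p = 0.00546) and Dtx3l by -0.51 ± 0.15 (adjusted p = 0.0142), and Dtx3l lost its call without Tim-3- array 3 (adjusted p = 0.0973). Parp14 missed the threshold there (adjusted p = 0.0576), although no array overlapped. Within set A, Parp9 changed by -0.37 in Tim-3+ cells (adjusted p = 0.0878) and by -0.53 in Tim-3- cells against naive (adjusted p = 0.0726), and within set B, Parp14 changed by -0.27 in Tim-3+ cells (adjusted p = 0.0608).

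Of the other induced genes, Rtp4, a chaperone for receptor transport, read 8.35, 8.71, 8.51 and 8.13 on Tim-3+ arrays, against 8.94, 9.56 and 8.97 on Tim-3- arrays and 9.47, 10.07, 10.07, 9.74 and 10.01 on naive arrays. Tim-3+ arrays were all lowest, and 1 Tim-3- array reached into the naive range. The change was -0.73 ± 0.19 in Tim-3+ against Tim-3- cells (adjusted p = 0.0201), -1.45 ± 0.17 in Tim-3+ against naive cells (adjusted p = 7.2e-06) and -0.71 ± 0.18 in Tim-3- against naive cells (adjusted p = 0.00724). The call between the TIL groups was lost without Tim-3+ array 4 (adjusted p = 0.0566) or Tim-3- array 2 (adjusted p = 0.115), and within set A it was -0.41 (adjusted p = 0.453). Within set A the change of Tim-3- against naive cells was -0.83 (adjusted p = 0.09). Xaf1, which opposes the apoptosis inhibitor XIAP, was lower in Tim-3+ than in naive cells, at a log2 change of -0.55 ± 0.12 (adjusted p = 0.00158), or -0.36 within set A (adjusted p = 0.209). Ifi27l2a and Ifi35 passed in no comparison of the main fit. In Tim-3- against naive cells Ifi27l2a was called higher with the array set as a block (0.33, adjusted p = 0.0191) and within set B (0.46, adjusted p = 0.0129).

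The 11 called genes were also the 11 whose arrays did not overlap between the TIL groups, 10 lower and 1 higher, beside 22.7% of all genes with no overlap in either direction. Of these, 6 changed at least 2-fold, all lower (Ifit3, Oasl2, Oas3, Rsad2, Ifnar2 and Ifit1), beside 2.21% of all genes. With no overlap, the 10 lower genes had to keep their sign within both sets of arrays, so that sign adds nothing. The share of all genes called within a set is not given here. In set B, Samhd1 passed (-0.65, adjusted p = 0.0135) and Ifnar1 did not (-0.40, adjusted p = 0.0638). Within set B, of 2 Tim-3+ and 2 Tim-3- arrays, a partly different 10 of the 31 genes were thus called lower. Within set A, of 2 and 1 arrays, 5 were, with the spread taken from the Tim-3+ and naive arrays.

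**Figure D4:**
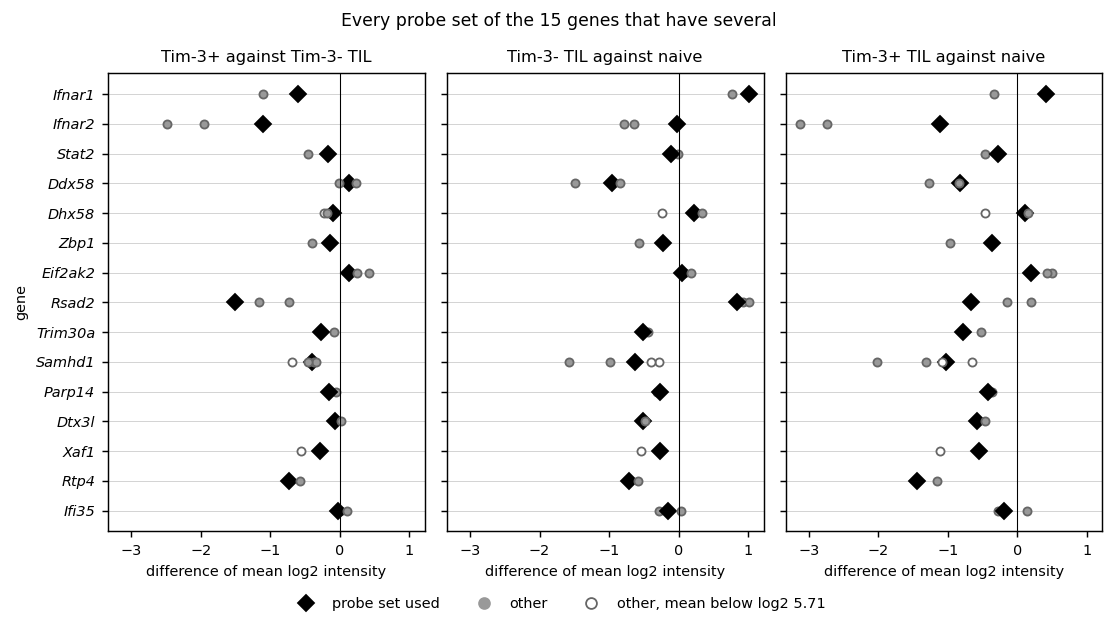
Log2 changes of every probe set of the 15 genes that have several, in the 3 comparisons, with diamonds for the probe set used, grey points for others and open points for others with a mean below log2 5.71. Ifnar2, Ifnar1 and Rsad2 lie left of 0 on all their probe sets in Tim-3+ against Tim-3- TIL, while Ifnar1 and Rsad2 straddle 0 in Tim-3+ TIL against naive.

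Of the 15 genes with several probe sets, all probe sets gave 1 direction for 12 genes between the TIL groups, with Ddx58, Dtx3l and Ifi35 split. In Tim-3- TIL against naive cells 13 gave 1 direction, with Dhx58 and Ifi35 split. In Tim-3+ TIL against naive cells 11 did, and Dhx58, Ifi35, Ifnar1 and Rsad2 were split. The other 16 genes rest on 1 probe set each.

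The motif was looked for on both strands in the RefSeq windows of 300 bases, 250 before and 50 after each start. Windows were matched for 21 of the 31 measured genes, among them 9 of the 11 called between the TIL groups. It was in 11 of the 21 genes (52.4%), beside 3.99% of 27025 genes and 3.44% of 32851 windows in the table. Of the 8 matched genes that were lower in Tim-3+ cells 5 had it, and of the 12 matched genes not called 6 had it. Besides the promoters printed above, Ifih1 had a match that begins 33 bases after the start and so outside the printed stretch. Oas1a, Bst2, Stat2, Trim30a, Ddx58 and Eif2ak2 also had one and were not called between the TIL groups. Matches within a gene could overlap, as in Oas1a, where they begin 20 and 14 bases before the start.

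The other genes of the pathway were counted in lists chosen by function. None of the 9 interferon ligand genes passed between the TIL groups, where 1, Ifng, passed the unadjusted p of 0.05 and is described with its targets, and Ifnb1 was within the range that may be background on every array. Of 15 receptor and signalling genes outside the list, 6 were lower and 0 higher in Tim-3+ cells than in Tim-3- cells. Of 17 genes that induce interferon, 2 were lower and 1 higher, or 17.6% in either direction, beside 13.5% of all genes. Of all genes, 5.77% were lower and 7.77% higher in this comparison. Of 43 further interferon-induced genes, 8 were lower and 3 higher, and of 9 GTPases known as targets of interferon gamma, 3 were lower and 2 higher.

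**Figure D5:**
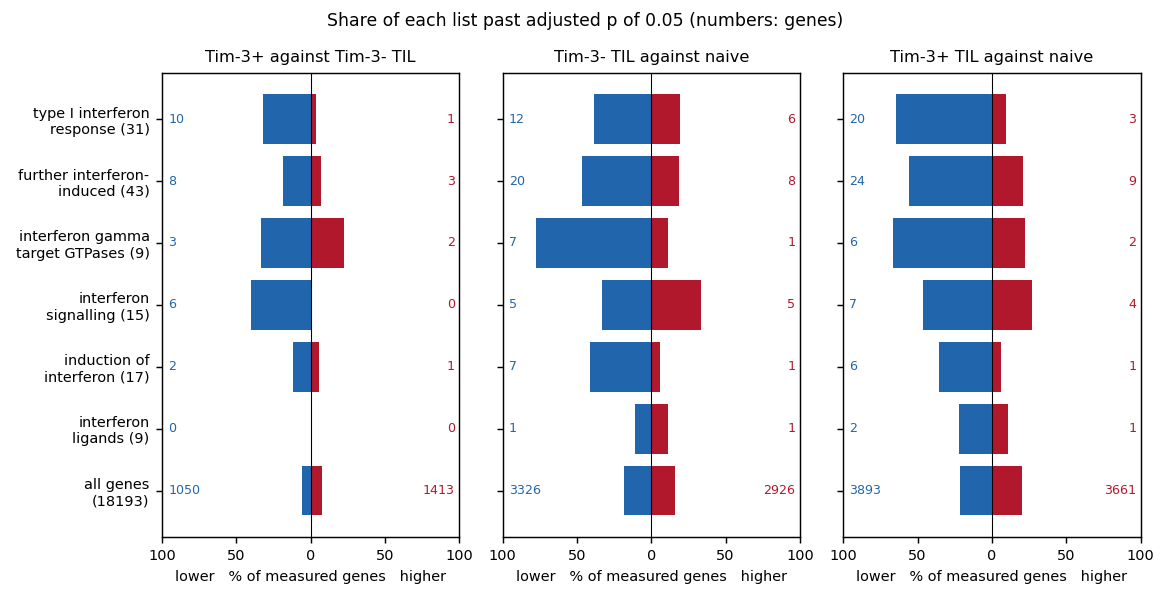
Bars give the percentage of measured genes in each list (size in brackets) that were called lower (blue, left) or higher (red, right) in each comparison, and the numbers are genes. The type I interferon response list has 10 lower and 1 higher between the TIL groups, and all genes have 1050 lower and 1413 higher.

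Among signalling genes, Socs3, a feedback inhibitor of cytokine receptors, read 9.30, 9.39, 8.90 and 8.66 on Tim-3+ arrays, against 11.16, 11.09 and 10.70 on Tim-3- arrays and 9.69, 9.998, 9.86, 9.73 and 10.11 on naive arrays. It was highest in Tim-3- cells and lowest in Tim-3+ cells with no overlap, as Rsad2 was. The change was -1.92 ± 0.18 in Tim-3+ against Tim-3- cells (adjusted p = 7.11e-06). Jak2, a kinase of the interferon gamma receptor, changed by -1.41 ± 0.19 between the TIL groups (adjusted p = 0.000225) and Pias2, of a SUMO ligase family, by -0.50 ± 0.09 (adjusted p = 0.0021). The Pias2 call was lost with the mean of its probe sets (-0.46, adjusted p = 0.0579) and with its most variable one (-0.49, adjusted p = 0.322).

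Ifngr2, the signalling chain of the interferon gamma receptor, was lower than naive, at a log2 change of -4.39 ± 0.13 in Tim-3+ cells (adjusted p = 6.54e-12) and -3.68 ± 0.14 in Tim-3- cells (adjusted p = 1.98e-10). Between the TIL groups it changed by -0.71 ± 0.15 (adjusted p = 0.00493), and the Tim-3+ mean may be background. Within set A that change was -0.45 (adjusted p = 0.156). Irf9, the DNA-binding part of the type I complex, was named for its role after its values were seen. It changed by -0.48 ± 0.12 between the TIL groups (adjusted p = 0.0135), no longer past the threshold when Tim-3- array 2 was left out (adjusted p = 0.0838) or within set A (-0.44, adjusted p = 0.215), and by -0.95 ± 0.10 in Tim-3+ against naive cells (adjusted p = 3.16e-06).

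Among genes that induce interferon, Cgas, the cytosolic DNA sensor, rose. It was higher in Tim-3+ cells than in Tim-3- cells by 1.19 ± 0.14 (adjusted p = 4.64e-05) and higher than naive by 0.58 ± 0.12 (adjusted p = 0.00135), and in Tim-3- cells it was lower than naive, at a log2 change of -0.61 ± 0.13 (adjusted p = 0.00214), or -0.48 within set A (adjusted p = 0.102). The Cgas call in Tim-3- against naive cells was lost with its most variable probe set (-0.20, adjusted p = 0.232). Irf7, the regulator of alpha interferon genes, changed by -0.87 ± 0.26 between the TIL groups (adjusted p = 0.0409), with arrays that overlapped and a call that did not stand without naive array 2 or 4, Tim-3+ array 1, 2 or 4 or Tim-3- array 2 or 3 (adjusted p 0.0509 to 0.199). Within set A it was -0.37 (adjusted p = 0.384). Trim25, a ubiquitin ligase that acts on RIG-I, changed by -0.35 ± 0.10 between the TIL groups (adjusted p = 0.0327). The Trim25 call was lost with its most variable probe set (-0.45, adjusted p = 0.281). It was also lost with only the compared groups in the fit (adjusted p = 0.0752) and with the replicate block (adjusted p = 0.0574). This call fell away without Tim-3+ array 2, 3 or 4 or Tim-3- array 1 or 2 (adjusted p 0.0635 to 0.111), within set A (-0.40, adjusted p = 0.152) and within set B (-0.35, adjusted p = 0.062).

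The further interferon-induced genes moved in both directions. Cxcl10, a chemokine that draws T cells, read 8.79, 8.77, 7.90 and 8.15 on Tim-3+ arrays, against 10.64, 10.55 and 10.68 on Tim-3- arrays and 5.42, 5.31, 6.08, 5.66 and 5.79 on naive arrays. The groups lay far apart, Tim-3- highest and naive lowest. It changed by -2.22 ± 0.22 between the TIL groups (adjusted p = 1.22e-05) and was higher than naive in both, by 2.75 ± 0.19 in Tim-3+ cells (adjusted p = 4.01e-08) and 4.97 ± 0.21 in Tim-3- cells (adjusted p = 6.12e-10). Slfn5, of the schlafen family, changed by -2.04 ± 0.24 between the TIL groups (adjusted p = 6.76e-05), and Slfn3 of the same family by 2.94 ± 0.25 (adjusted p = 2.63e-06) from a Tim-3- mean that may be background. Ifi213, of a family of DNA-binding proteins, changed by -1.02 ± 0.17 (adjusted p = 0.0009), or -0.78 within set A (adjusted p = 0.19).

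Of the GTPases known as interferon gamma targets, Iigp1 changed by -1.33 ± 0.23 in Tim-3+ against Tim-3- cells (adjusted p = 0.00117), Igtp by -0.47 ± 0.11 (adjusted p = 0.00958) and Gbp2 by -0.67 ± 0.17 (adjusted p = 0.0156), while Gbp7 changed by 0.72 ± 0.13 (adjusted p = 0.00182). The Igtp and Gbp2 calls were both lost without Tim-3- array 2 (adjusted p = 0.0626 and 0.0941). Within set A, Igtp changed by -0.44 (adjusted p = 0.124) and Gbp2 by -0.23 (adjusted p = 0.484), and within set B, Igtp changed by -0.44 (adjusted p = 0.0648) and Gbp7 by 0.48 (adjusted p = 0.0646). Ifng itself, named after its values were seen, read 11.64 to 12.14 on Tim-3+ arrays, against 10.29 to 11.20 on Tim-3- arrays and 2.92 to 4.83 on naive arrays. All Tim-3+ arrays were above all Tim-3- arrays. Its change between the TIL groups was 1.18 ± 0.38 (adjusted p = 0.0536), and it passed in 6 of the 11 other fits that left out no single array (adjusted p 0.00971 to 0.0488) and in 4 of the 12 that left out 1.

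Against naive cells, the further interferon-induced genes had 24 lower and 9 higher in Tim-3+ TIL and 20 lower and 8 higher in Tim-3- TIL, of 43. Among all genes, 21.4% were lower and 20.1% higher in Tim-3+ TIL, and 18.3% lower and 16.1% higher in Tim-3- TIL. The signalling genes had 7 lower and 4 higher in Tim-3+ TIL and 5 lower and 5 higher in Tim-3- TIL, of 15. The genes that induce interferon had 6 lower and 1 higher in Tim-3+ TIL and 7 lower and 1 higher in Tim-3- TIL, of 17. The GTPases known as interferon gamma targets had 6 lower and 2 higher in Tim-3+ TIL and 7 lower and 1 higher in Tim-3- TIL, of 9.

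Markers of other cells that respond to interferon were read on the same arrays. The summed linear intensity of 11 macrophage and monocyte markers was 433 to 543 on Tim-3+ arrays, 520 to 608 on Tim-3- arrays and 355 to 438 on naive arrays, with 9 of the 11, among them Adgre1, Lyz2 and C1qa, in the range that may be background in every group. Cd68, a lysosomal protein of macrophages above that range, read 7.14, 7.78, 7.35 and 7.57 on Tim-3+ arrays, against 8.19, 8.24 and 8.42 on Tim-3- arrays and 6.88, 6.27, 6.81, 6.79 and 7.42 on naive arrays. It was lowest in naive cells and highest in Tim-3- cells, and it changed between the TIL groups in the direction of the 10 lower interferon response genes, by -0.82 ± 0.22 (adjusted p = 0.0203). That call was lost without Tim-3+ array 1 or Tim-3- array 2 or 3 (adjusted p 0.0569 to 0.0793) and in set A alone (-0.73, adjusted p = 0.267). Against naive cells Cd68 was higher by 0.63 ± 0.19 in Tim-3+ cells (adjusted p = 0.0156) and by 1.45 ± 0.21 in Tim-3- cells (adjusted p = 7.28e-05). The Tim-3+ call was lost without Tim-3+ array 2 (adjusted p = 0.0576) and within set B (0.45, adjusted p = 0.107). Within set A that change was 0.89. Cd14, a receptor for bacterial lipid, changed by 0.89 ± 0.20 between the TIL groups (adjusted p = 0.00778) with all group means in the range that may be background. Within set B its change was 0.85 (adjusted p = 0.0726).

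The summed linear intensity of 7 B cell markers was 243 to 264 on Tim-3+ arrays, 278 to 294 on Tim-3- arrays and 630 to 833 on naive arrays, with Ms4a1 and Pax5 in that range in every group. Cd79b, a B cell receptor chain, was lower in Tim-3+ cells than in Tim-3- cells, at a log2 change of -0.78 ± 0.13 (adjusted p = 0.00109) and lower than naive, at a log2 change of -3.29 ± 0.11 (adjusted p = 2.78e-11).

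For 10 dendritic cell markers the sum was 867 to 932 on Tim-3+ arrays, 715 to 741 on Tim-3- arrays and 2940 to 3490 on naive arrays, with Flt3 and Xcr1 in the range that may be background in every group. Ccr9, a homing receptor that naive CD8 T cells also carry, read 5.54 to 6.00 on Tim-3+ arrays, 5.23 to 5.96 on Tim-3- arrays and 11.23 to 11.52 on naive arrays. Itgax, the integrin chain CD11c, read 4.85, 5.70, 5.25 and 5.32 on Tim-3+ arrays, against 5.58, 7.13 and 6.28 on Tim-3- arrays and 3.93, 4.37, 5.05, 4.40 and 4.08 on naive arrays. Tim-3- arrays were highest on average and 1 of them overlapped the Tim-3+ arrays. Its change between the TIL groups was -1.05 ± 0.33 (adjusted p = 0.0484), again the direction of the lower interferon response genes, and was lost without naive array 2, 4 or 5, Tim-3+ array 1, 3 or 4 or Tim-3- array 2 or 3 (adjusted p 0.0582 to 0.246) and in set A alone (-0.30, adjusted p = 0.698). Tcf4, a transcription factor of plasmacytoid dendritic cells, changed the other way, by 1.13 ± 0.22 (adjusted p = 0.00283), or 0.61 within set A.

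Of 8 melanoma markers, 5 were higher and 1 lower in Tim-3+ TIL than in naive cells, beside 20.1% and 21.4% of all genes. In Tim-3- TIL 2 were higher and 1 lower than in naive cells, beside 16.1% and 18.3% of all genes. None of the 8 markers was called between the TIL groups, beside 13.5% of all genes. Tyrp1, Dct and Pmel are named after their values were seen. Tyrp1 read 4.67 to 8.29 on Tim-3+ arrays, 5.52 to 7.34 on Tim-3- arrays and 2.94 to 3.38 on naive arrays. Dct, in the same order, read 4.92 to 8.28, 5.72 to 7.19 and 3.59 to 4.48. Pmel read higher on every naive array than on any TIL array. The summed linear intensity of the 8 markers was 341 to 1280 on Tim-3+ arrays, 433 to 703 on Tim-3- arrays and 451 to 594 on naive arrays. For 4 NK cell markers the sum was 842 to 1120 on Tim-3+ arrays, 1810 to 2000 on Tim-3- arrays and 386 to 492 on naive arrays. Ncr1 and Klra8 were in the range that may be background in every group. Eomes was the brightest of the 4 on every array, at log2 9.63 to 10.08, 10.71 to 10.83 and 8.46 to 8.83 in the same order, so the sum mostly reflects it. Eomes, which T cells also use, and Klrb1f were the called NK markers between the TIL groups, at -0.97 ± 0.12 (adjusted p = 0.000117) and -2.37 ± 0.26 (adjusted p = 2.75e-05). The part of other cells in the changes of the interferon response genes was not tested.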

How the data were processed

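Expression was measured on 12 mouse Affymetrix arrays. The authors deposited 1 linear intensity per probe set and array, made with RMA and the affy package per the submitters' processing notes. Versions, the return to the linear scale and whether arrays were normalized jointly are not stated there. Array medians ran between 58.8 and 63.0, and the number of arrays limits the precision. Of 45101 probe sets, 34945 name exactly 1 gene in the array's annotation; a gene took the one with the highest mean over all arrays, which gave 18193 genes. No filter on dim genes was applied.

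Log2 values were fitted with limma 3.58.1 (R 4.3.3) as 3 group means over 12 arrays, with moderated two-sided tests and Benjamini-Hochberg adjusted p below 0.05 over all genes. Errors are SE of that fit, or SD where stated. The fit was tested on simulated data. Tables, motif matches and figures were made with Python 3.11.15.

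The members, the 11 other gene lists, the array sets and the tests were chosen with earlier results of these data known. Values on every array are given for genes called between the TIL groups and those changed at least 2-fold against naive cells; up to 4 genes of each other list with the smallest adjusted p between the TIL groups are named, and others named are said to be.

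The replicate numbers in the labels pair no samples by label. Deviations from group means of same-numbered arrays correlated with r of 0.128 to 0.319 for all 4 numbers in Tim-3+ TIL and naive cells, so that comparison was also fitted with the replicate number as a block, which left its counts at 20 lower and 3 higher. In the other comparisons r ran between -0.15 and 0.413. Alternatives tried were other probe sets for a gene, a second quantile normalization, dropping dim genes, array weights, moderation, the arrays in the fit, both blocks, each set, and leaving out each array.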

Additional observations from a re-analysis of the deposited data

Results flagged for a closer look

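In 62 combinations of a gene and a group of at least 4 arrays, 4 had an array that stood farther from the others than Dixon's critical value allows. Chance gives about 1 in 20. Xaf1 read 10.33 on Tim-3+ array 2, against 10.01 to 10.02 on the other Tim-3+ arrays, and 10.31 on naive array 1, against 10.67 to 10.80 on the other naive arrays. Ddx58 read 9.86 on naive array 2, against 9.50 to 9.60 on the others. Parp14 read 10.35 on naive array 2, against 10.01 to 10.10 on the others.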

How the results depend on the processing

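Under the 11 alternatives other than leaving out a single array, the 10 genes lower in Tim-3+ than in Tim-3- TIL became 5 within set A and between 9 and 12 under the others, and the 1 gene higher became 0 with only the compared groups in the fit, with the replicate block and within set B. Genes higher in Tim-3- TIL than in naive cells fell to 2 within set A, against 6, and those higher in Tim-3+ TIL than in naive cells to 1 within set A, against 3. Set A has 1 Tim-3- array and fewer samples. Leaving out each array gave 7 to 10 lower and 0 to 1 higher between the TIL groups, 10 to 13 lower and 4 to 6 higher in Tim-3- TIL against naive, and 18 to 20 lower and 1 to 3 higher in Tim-3+ TIL against naive, the 1 without Tim-3+ array 2 or 4 or naive array 1 or 4. The replicate block gave 10 lower and 0 higher between the TIL groups, 12 lower and 6 higher in Tim-3- TIL against naive, and 20 lower and 3 higher in Tim-3+ TIL against naive; among the members it changed the call of Ifit2 (adjusted p = 0.0535) and no other. Ifnar1 in Tim-3+ TIL against naive reversed to -0.34 (adjusted p = 0.18) with the most variable probe set. Among the named genes outside the list, Pias2 in Tim-3- TIL against naive was 0.24 (adjusted p = 0.0506) and became -0.65 (adjusted p = 0.00259) with the mean of probe sets and -1.54 (adjusted p = 0.000326) with the most variable one; the alternatives for those genes were added after seeing the data. The causes were not tested. Of the single-gene results of members, 965 kept direction and side of the threshold under these 11 alternatives, 33 lost it, 18 gained it and 1 reversed.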
